A study of Mus musculus with 2 samples.

Results

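The insulin and IGF signalling genes examined here were *Insr*, *Irs1*, *Irs2*, *Akt2*, *Foxo1*, *Foxo3*, *Igf1*, *Igfbp1*, *Igfbp2* and *Igfbp4*. Their members were the distinct accessible regions whose closest transcription start site (TSS) was that of 1 of these 10 genes, as named in the table. There were 50 such regions among the 69549 in the table. A region counted as a promoter region when its centre lay within 1000 bp of the TSS, which held for 9 of the 50 and for 14387 of all regions. The other 41 member regions, of 55162 in all, are described apart. By the TSS of the table, each of the genes had 1 promoter region except *Igf1*, which had 0.

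Accessibility was measured by ATAC-seq, in which the Tn5 transposase cuts open chromatin and attaches sequencing adaptors to it. The control group was *Mettl3* flox/flox mice, which carry loxP-flanked alleles of the m6A methyltransferase gene *Mettl3* and no Cre. The other group was *Mettl3*-HKO mice (*Mettl3* flox/flox *Alb*-Cre+/-), in which the albumin promoter drives Cre in hepatocytes. All mice were on the C57BL/6 background, ate normal chow and were 8 weeks old, and the liver of 4 mice was pooled into 1 library per genotype. *Mettl3* is not targeted in the other cells of the liver, and no library of *Alb*-Cre mice without the floxed alleles was analysed here. The libraries are called control and HKO below. With 1 library per genotype there is no replicate error and no test across mice, so every difference below is one between 2 libraries. The intervals are 95% Clopper-Pearson intervals that cover counting error only.

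Insulin binds its receptor *Insr* on hepatocytes, and the receptor phosphorylates the adaptors *Irs1* and *Irs2*, which recruit phosphatidylinositol 3-kinase and lead to activation of the kinase *Akt2*. AKT phosphorylates *Foxo1* and *Foxo3*, which then leave the nucleus, so that FoxO target genes such as *Igfbp1* and *Irs2* are transcribed in fasting and repressed after feeding. The liver is also the main source of circulating IGF-1, and the IGF binding proteins carry this hormone in blood and limit its access to receptors.

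Regions held 31.7% of the reads of the control library and 22.3% of those of the HKO library, and the library totals were 52826202 and 58038305 reads. Log2 ratios of HKO over control are given on the scale of those totals, with 1 read added to each count. On it the median of all regions was −0.38, that of all promoter regions −0.56 and that of all other regions −0.27, so most regions in the liver were lower in the HKO library. Centred values, from which the median of all regions is subtracted, are given as well, and differences between 2 member regions do not depend on the scale. Defining hepatocyte markers were open, with a promoter region for 8 of 8 genes at 30.9 to 78.3 times the genome mean in the control library and a median log2 ratio of −0.77. Endothelial markers had a promoter region for 7 of 8 genes at 1.88 to 7.52 times the genome mean, and their summed level was 3.03 RPM (reads scaled to the library total) in the control and 7.01 RPM in the HKO library. Their median log2 ratio was 1.60, and the part of cell composition in the values below was not tested. Promoter regions were found for 2 of 8 macrophage markers (1.04 and 1.96 RPM summed), 3 of 8 stellate cell markers (14 and 3.65 RPM, median log2 ratio 0.08), 5 of 8 cholangiocyte markers (15.8 and 12.1 RPM) and 0 of 8 lymphocyte markers. The stellate sum rests on *Reln*, with 690 and 132 reads, while *Col1a1* had 37 and 43 and *Hand2* 9 and 34. The *Mettl3* promoter, with 566 and 392 reads, does not report on the deletion of exons.

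The promoter sequences of 4 genes are shown first, because they hold the DNA that lies under the regions described below. They are the RefSeq windows from 250 bases before to 50 bases after the annotated start, on GRCm38.p6, written 5′ to 3′ on the strand of the gene, and all lie inside the promoter region of their gene. Capitals mark the insulin response sequence CAAAACA or its reverse complement TGTTTTG, and the E-box CACGTG, which basic helix-loop-helix factors bind. *Igfbp1* is the textbook gene repressed by insulin through FoxO1 and also had the highest promoter ratio of HKO over control. *Igfbp2* is shown because it had the lowest promoter ratio, and *Irs1* and *Irs2* for the motifs they hold. The *Irs1* and *Irs2* windows were added after their values and motifs were seen.
Igfbp1, chr11:7197537-7197836, plus strand: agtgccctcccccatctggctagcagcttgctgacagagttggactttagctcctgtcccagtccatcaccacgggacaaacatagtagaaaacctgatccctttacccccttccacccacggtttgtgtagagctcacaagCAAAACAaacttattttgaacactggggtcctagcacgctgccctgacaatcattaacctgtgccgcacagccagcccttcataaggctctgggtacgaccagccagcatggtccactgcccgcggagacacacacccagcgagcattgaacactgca
Irs1, chr1:82291390-82291689, minus strand: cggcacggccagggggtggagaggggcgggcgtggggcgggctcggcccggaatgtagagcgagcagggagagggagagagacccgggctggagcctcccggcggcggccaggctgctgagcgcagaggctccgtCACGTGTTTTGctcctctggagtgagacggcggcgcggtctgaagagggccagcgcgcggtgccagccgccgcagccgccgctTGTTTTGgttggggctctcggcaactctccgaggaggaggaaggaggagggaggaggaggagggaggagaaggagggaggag
Irs2, chr8:11008880-11009179, minus strand: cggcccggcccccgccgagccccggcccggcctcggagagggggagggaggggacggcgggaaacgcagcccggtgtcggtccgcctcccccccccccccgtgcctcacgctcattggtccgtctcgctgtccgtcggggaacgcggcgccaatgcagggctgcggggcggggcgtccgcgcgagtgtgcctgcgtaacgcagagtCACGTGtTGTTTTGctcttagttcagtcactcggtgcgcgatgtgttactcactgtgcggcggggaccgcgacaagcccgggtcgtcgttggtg
Igfbp2, chr1:72824230-72824529, plus strand: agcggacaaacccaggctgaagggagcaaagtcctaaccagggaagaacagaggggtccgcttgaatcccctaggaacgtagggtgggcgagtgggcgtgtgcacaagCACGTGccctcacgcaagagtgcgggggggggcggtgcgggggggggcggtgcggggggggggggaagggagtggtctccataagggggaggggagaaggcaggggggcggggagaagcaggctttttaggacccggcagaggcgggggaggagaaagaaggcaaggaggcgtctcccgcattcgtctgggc

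The CAAAACA of *Igfbp1* starts 108 bases upstream of the RefSeq start, at 7197679 to 7197685 on chromosome 11. The reverse complement occurs at 2 places in *Irs1*, 111 and 32 bases upstream, and at 1 place in *Irs2*, 37 bases upstream. In *Irs1* the E-box overlaps the more distant of these copies, and in *Irs2* it ends just before the copy starts. RefSeq windows were found for 9 of the 10 genes, with *Insr* named only, and these genes had 13 windows in all, since some have several starts. CAAAACA on either strand was present in 3 of the 13 windows, each of another gene, against 6.32% of all 32544 windows. The E-box was also present in 3 of the 13 windows, those of *Irs1*, *Irs2* and *Igfbp2*, against 7.17% of all windows. GTAAACA, the form of the FoxO family element that was searched for, was in 0 of the 13 windows and in 3.66% of all windows. This does not mean that the windows lack FoxO sites of another form. The cyclic AMP response element TGACGTCA was in 0 and in 1.80%. The STAT element TTCNNNGAA occurred in 1 window, of *Akt2*, and in 8.33% of all windows, and TATAAA in 1 window, of *Igfbp4*, 28 bases upstream of its start, and in 13.6%. A match is a stretch of letters and not a measured binding site. The windows of *Foxo3* (75% G+C), *Irs2* (72%), *Irs1* and *Igfbp4* (71.3% each) were rich in G+C beside a median of 53% over all windows, whereas *Igfbp1* had 54.3%. The observed over expected CpG ratio was 1.10 in *Foxo1* and 1.06 in *Irs2*, but 0.383 in *Igfbp1*, close to the median of 0.387.

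All 9 promoter regions had a peak in both libraries, and all 9 had a log2 ratio below 0, from −1.79 at *Igfbp2* to −0.55 at *Igfbp1*, with a median of −1.0. Among all promoter regions, 83.9% were below 0 on this scale and 66.4% after centring, so the direction alone says little about these 9. Of the 9, 5 (55.6%) were lower in HKO by 2-fold or more, where 16.3% of all promoter regions were. None (0 of 9) was at least 2-fold higher, against 4.07% of all promoter regions. After centring, 1 of the 9 was at least 2-fold lower, against a background of 5.00%, and 0 were higher, against 6.90%. The centred median was −0.62, beside −0.19 for all promoter regions, and 8 of the 9 lay below the median of all promoter regions. In bulk tissue, a lower share of hepatocytes and less accessible hepatocyte chromatin cannot be told apart. With 1 library per genotype, neither can be told apart from a technical difference between the libraries. Scaled to the reads in regions, the median of the 9 was −0.49, and 1 was at least 2-fold lower. The ratios were also set against signal, with all promoter regions split into 4 equal classes by mean RPM. The 6 member promoters in the strongest class had a median of −0.65, close to the −0.64 of all regions of that class. The 3 weaker ones lay lower than their classes, with −1.23 at *Insr* against −0.63 and a median of −1.41 at *Igfbp2* and *Igfbp4* against −0.55.

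**Figure D1:**
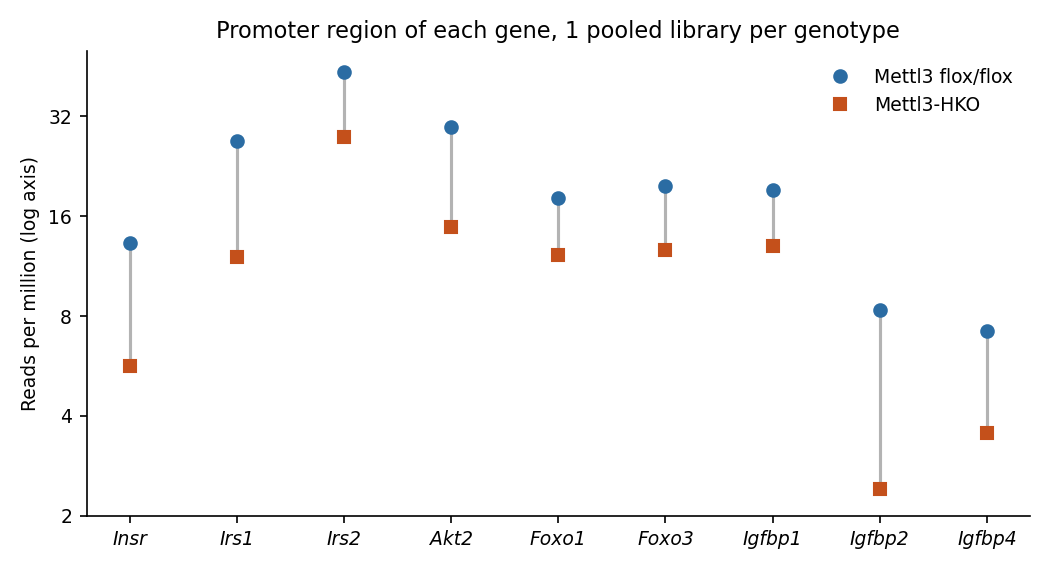
RPM (log axis) in the promoter region of the 9 genes that have one, with circles for the control library and squares for the HKO library. Every square lies below its circle, with the widest gap at *Igfbp2* (8.35 against 2.41 RPM) and the narrowest at *Igfbp1* (19.2 against 13 RPM).

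The receptor gene *Insr* spans 3150922 to 3279617 of chromosome 8 on the minus strand. Its promoter region, from 3279050 to 3279797 and centred in exon 1, had 701 reads in the control library and 328 in the HKO library, or 13.3 and 5.67 RPM. The HKO value was lower, with a log2 ratio of −1.23 (95% interval −1.43 to −1.04), or −0.85 after centring. Only 8.06% of all promoter regions had a lower ratio. The other 4 *Insr* regions lay upstream of the gene and were weak, and 3 of them lay above the promoter by an interval that did not include 0. Over all genes, 38.0% of the 21626 other regions of a gene with a promoter region did so, and 17.4% lay below it in the same way. The region 9160 bp upstream had 38 reads in the control and 69 in the HKO library, giving a log2 ratio of 0.71 (95% interval 0.13 to 1.34). It differed from the promoter by 1.95 on the log2 scale (95% interval 1.33 to 2.60). The regions 19922 and 31974 bp upstream had 40 and 38 reads in the control library and 47 each in the HKO library, and their intervals include 0. In contrast, the region 11034 bp upstream had 32 and 10 reads, a log2 ratio of −1.72 (95% interval −3.00 to −0.75), and its peak was found in the control library alone. No region over the body of *Insr* beyond its promoter had *Insr* as its closest TSS.

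The 2 adaptor genes differed. The *Irs1* promoter region, on chromosome 1 from 82290738 to 82291875 and centred in the 5′ UTR, had 1429 reads in the control and 701 in the HKO library, giving a log2 ratio of −1.16 (95% interval −1.30 to −1.03). The *Irs2* promoter region, on chromosome 8 from 11008706 to 11010093, had 2308 and 1607 reads, a log2 ratio of −0.66 (95% interval −0.75 to −0.57). It was the strongest member promoter by reads, with 43.7 and 27.7 RPM. The *Irs1* value was lower than the *Irs2* value by a log2 difference of −0.51 (95% interval −0.67 to −0.34). *Irs2* is centred 941 bp upstream of the TSS in the table, near the limit of the promoter window, but the RefSeq start lies inside the region. The region also overlaps the RefSeq gene *9530052E02Rik*, so it cannot be assigned to *Irs2* alone.

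Beyond the promoters, the 3 *Irs1* regions all lie in its last intron and were unlike each other. The region 7568 bp downstream of the TSS had 1100 and 678 reads, a log2 ratio of −0.83 (95% interval −0.97 to −0.69). The next, 9418 bp downstream and 202 bp long, had 58 and 109 reads, a log2 ratio of 0.76 (95% interval 0.30 to 1.26), with a peak in the HKO library alone. The third, 27494 bp downstream, had 43 and 47 reads and a log2 ratio of −0.01. The 2 *Irs2* regions lie 2768 and 13046 bp upstream, inside *9530052E02Rik* as well, with 367 and 365 reads in the control library and 234 and 241 in the HKO library. Their log2 ratios of −0.78 and −0.73 did not differ from that of the *Irs2* promoter beyond counting error.

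*Akt2*, the AKT isoform that carries most of the metabolic action of insulin in liver, has a long promoter region of 2253 bp on chromosome 7, from 27591355 to 27593607. It had 1570 reads in the control and 862 in the HKO library, or 29.7 and 14.9 RPM. The log2 ratio was −1.0 (95% interval −1.12 to −0.88), so this gene sits on the 2-fold threshold itself, and the centre lies 928 bp from the TSS, just inside the promoter window. The second *Akt2* region, 14152 bp downstream in intron 1 from 27605543 to 27605866, coincides with the window of an alternative RefSeq start of *Akt2*. It had 52 reads in each library, a log2 ratio of −0.14 (95% interval −0.72 to 0.45). The alternative start was therefore higher relative to the main promoter by 0.86 on the log2 scale (95% interval 0.27 to 1.46), though at far fewer reads.

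The transcription factor genes *Foxo1* and *Foxo3* had promoter ratios near the median of all promoters. The *Foxo1* promoter region, on chromosome 3 from 52267873 to 52269315, had 959 reads and 710 reads, a log2 ratio of −0.57 (95% interval −0.71 to −0.43). The region also overlaps a gene without a symbol, so it cannot be assigned to *Foxo1* alone. The *Foxo3* promoter region, on chromosome 10 from 42276479 to 42277279, had 1043 and 732 reads, a log2 ratio of −0.65 (95% interval −0.78 to −0.51). The pair differed by −0.08 (95% interval −0.28 to 0.12), within counting error. *Foxo1* had 1 further region, 10378 bp upstream, with 41 and 23 reads and a peak in the control library alone.

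*Foxo3* had the most regions of the 10 genes, 14 beside a median of 2 over the 27433 genes named as closest to a region, and 0.660% of those genes had 14 or more. Its 13 other regions spread from 14804 bp upstream to 73862 bp downstream, with 11 of them in intron 2, of which 7 also overlap the RefSeq gene *Gm38485*. All 13 had a log2 ratio below 0, as 59.8% of all other regions did, from −2.64 to −0.10 with a median of −0.71. After centring, 11 were below 0 and 2 above, where 45.7% of all other regions were below 0. The strongest lies 1190 bp upstream, just outside the promoter window, and had 1578 and 1222 reads and a log2 ratio of −0.50 (95% interval −0.61 to −0.40). Of the 13, those 14804 bp upstream and 8383, 12332, 16884, 24695 and 56310 bp downstream had a peak in the control library alone. They were thus listed through the library in which they were high. The rest had a peak in both libraries and log2 ratios from −0.98 to −0.10. The intron was not uniform. The regions 25327 and 45690 bp downstream had 145 and 312 reads in the control library and 149 and 320 in the HKO library, and both lay above the *Foxo3* promoter by 0.55 on the log2 scale (95% intervals 0.18 to 0.92 and 0.28 to 0.82). The region 50868 bp downstream had 690 and 383 reads, a log2 ratio of −0.98, below the promoter by −0.34 (95% interval −0.57 to −0.11). The lowest value of all member regions was 56310 bp downstream, from 42220343 to 42220542, where 50 reads in the control library stood against 8 in the HKO library. Its log2 ratio of −2.64 has a wide interval (95% interval −4.07 to −1.69), and its peak was found in the control library alone, so that it was listed through the library in which it was high.

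The gene of the hormone itself, *Igf1*, had no region within 1000 bp of its TSS on chromosome 10, at 87859068 on the plus strand, and no region over its RefSeq promoter window at 87860861 to 87861160. RefSeq also lists an earlier start of the gene, at 87858265, and the nearest region is centred 491 bp upstream of that start, so by it this region would count as a promoter region. All 6 of its regions lie upstream. The nearest, 1294 bp upstream, had 220 reads in the control and 225 in the HKO library, and its log2 ratio of −0.10 (95% interval −0.38 to 0.17) includes 0. The region 2402 bp upstream had 96 and 76 reads. The other 4 regions lie further away. The one 10992 bp upstream had 11 and 36 reads, a log2 ratio of 1.49 (95% interval 0.57 to 2.70), the highest of the 50 member regions, and the one 26827 bp upstream had 50 and 81 reads, a log2 ratio of 0.55 (95% interval 0.03 to 1.10). Those 63120 and 71280 bp upstream had 13 and 100 reads in the control library and 27 and 80 in the HKO library. RefSeq places the 4 nearest regions in *Igf1os*, the antisense RNA gene beside *Igf1*, and the 2 most distant in *Gm30073*, so none of the 6 can be assigned to *Igf1* alone. The highest ratio belongs to a region with few reads and a peak in the HKO library alone, a class whose median over all other regions was 1.09.

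The promoters of the 3 binding protein genes spanned the whole range of the 9 member promoters, from −1.79 to −0.55. *Igfbp1*, an acute insulin- and FoxO1-regulated product of hepatocytes, had one of the densest promoters of the liver, at 101 times the genome mean in the control library and 68.9 times in the HKO library, above 98.0% and 98.6% of all promoter regions. The region, on chromosome 11 from 7197454 to 7197970, had 1011 and 756 reads, a log2 ratio of −0.55 (95% interval −0.69 to −0.42). The 3 other *Igfbp1* regions were dense as well. The 2576 bp region that starts in the 3′ UTR and runs past the gene, from 7202062 to 7204637, had 3151 and 3011 reads, the most of any member region, and a log2 ratio of −0.20 (95% interval −0.27 to −0.13). The region 3982 bp downstream, centred in the last intron, had 458 and 470 reads, and that 3086 bp upstream 843 and 728. All 3 lay above the *Igfbp1* promoter on the log2 scale, by 0.35, 0.46 and 0.21, with 95% intervals that do not include 0. The region 3982 bp downstream had a peak in the HKO library alone. Over all genes, 38.0% of other regions lay above the promoter of their gene in this way.

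*Igfbp2*, a binding protein that the liver secretes into blood, had the lowest promoter ratio of the 9. Its promoter region, on chromosome 1 from 72823895 to 72825160 and centred in the 5′ UTR, had 440 reads in the control and 139 in the HKO library, or 8.35 and 2.41 RPM. The log2 ratio was −1.79 (95% interval −2.08 to −1.52), which is 3.46-fold lower, and −1.41 after centring. Only 1.28% of all promoter regions had a lower ratio. By reads per length it ranked above 35.5% of promoter regions in the control library and above 6.37% in the HKO library. The 5 other *Igfbp2* regions were lower too, each by less than the promoter. The region 51292 bp upstream had 1045 and 561 reads, a log2 ratio of −1.03 (95% interval −1.18 to −0.88), and that 33705 bp upstream had 315 and 160 reads, a log2 ratio of −1.11 (95% interval −1.40 to −0.83). The remaining 3, at 32364 and 14663 bp upstream and 18521 bp downstream in intron 1, had 481, 1018 and 340 reads in the control library and 319, 651 and 206 in the HKO library. RefSeq places the 4 upstream regions in *Gm30847*. Between the *Igfbp2* and *Igfbp1* promoters the difference was −1.24 (95% interval −1.56 to −0.93).

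*Igfbp4*, a binding protein that inhibits IGF action, stood between them. Its promoter region, on chromosome 11 from 99041002 to 99041564, had 380 and 205 reads, a log2 ratio of −1.02 (95% interval −1.28 to −0.78). In intron 1, the regions 3274 and 5962 bp downstream had 414 and 161 reads in the control and 228 and 91 in the HKO library, with log2 ratios of −0.99 and −0.95. The region between them, 4497 bp downstream, had 400 and 308 reads and a log2 ratio of −0.51, above the promoter by 0.51 (95% interval 0.18 to 0.85).

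Ordered by log2 ratio, the promoters ran *Igfbp2*, *Insr*, *Irs1*, *Igfbp4*, *Akt2*, *Irs2*, *Foxo3*, *Foxo1* and *Igfbp1*, from lowest to highest. Of the 8 neighbouring pairs in this order, 6 did not differ beyond counting error. The exceptions were *Insr* over *Igfbp2*, by 0.57 (95% interval 0.22 to 0.91), and *Irs2* over *Akt2*, by 0.34 (95% interval 0.19 to 0.50). Of all 36 pairs, compared without adjustment, 25 had an interval that did not include 0. *Igfbp2* differed from all 8 others, whereas *Irs2*, *Foxo3*, *Foxo1* and *Igfbp1* did not differ from each other. The share among pairs of all promoter regions was not computed, so these counts cannot be read as a trait of these genes.

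**Figure D2:**
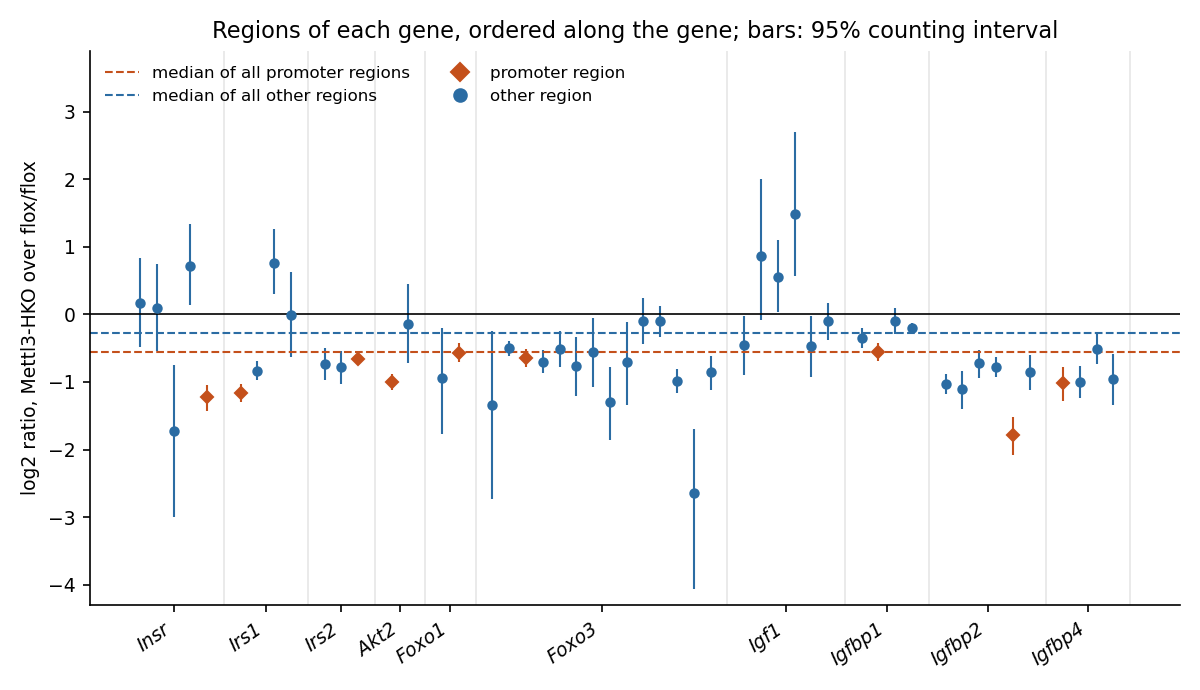
Log2 ratio of HKO over control for the 50 member regions, grouped by gene and ordered from upstream to downstream of the TSS, with diamonds for promoter regions, circles for other regions and bars for 95% counting intervals. Dashed lines mark the medians of all promoter regions (−0.56) and all other regions (−0.27), and the circles of *Insr*, *Irs1* and *Igf1* include the values above 0 whereas those of *Igfbp2*, *Igfbp4* and *Foxo3* all lie below 0.

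Over the 41 other regions the median log2 ratio was −0.56, beside −0.27 for all other regions. The centred medians were −0.18 and 0.10. Of the 41, 34 were below 0 and 7 above, where 59.8% of all other regions were below 0 and 40.2% above. After centring the members split into 26 below 0 and 15 above, where 45.7% of all other regions were below 0 and 54.3% above. Of the 41, 6 (14.6%) were at least 2-fold lower, against 18.8% of all other regions, and 1 (2.44%) was at least 2-fold higher, against 15.6%. The 6 were 3 regions of *Foxo3*, 2 of *Igfbp2* and 1 of *Insr*, and the 1 was that of *Igf1*. Those of *Foxo3* and *Insr* had a peak in the control library alone, and that of *Igf1* in the HKO library alone. They were thus listed through the library in which they were high, unlike the 2 of *Igfbp2*. After centring, 2 were lower, against 8.65%, and 4 higher, against 23.5%. Without *Foxo3* the number at least 2-fold lower was 3. Both shares were below the background. Member regions were denser than most, with a median of 23.2 times the genome mean in the control library beside 9.78 for all other regions, and 20 of the 41 fell in the strongest of 4 signal classes, where their median of −0.73 stood beside −0.62 for all regions of that class. From the weakest class upward, the other 3 classes held 6, 7 and 8 members with medians of −1.14, 0.09 and −0.51, beside 0.47, −0.04 and −0.33 for all regions. All 6 members of the weakest class had a peak in 1 library alone, 4 in the control and 2 in the HKO library, and were listed through the library in which they were high. By peak call, the 25 members with a peak in both libraries had a median of −0.51 beside −0.40 for all such regions. The 11 with a peak in the control library alone had −0.94 beside −1.03, and the 5 in the HKO library alone 0.76 beside 1.09. Among the 35 other regions of genes with a promoter region, 18 lay above their own promoter and 3 below it by an interval that did not include 0, and 14 did not differ from it beyond counting error. These counts stand beside 38.0% above and 17.4% below over all genes, and all other regions as a class had higher ratios than promoter regions. Of the 18, the regions 9418 and 27494 bp downstream in *Irs1* and 3982 bp downstream in *Igfbp1* had a peak in the HKO library alone. Of the 3, those 16884 and 56310 bp downstream in *Foxo3* had a peak in the control library alone.

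**Figure D3:**
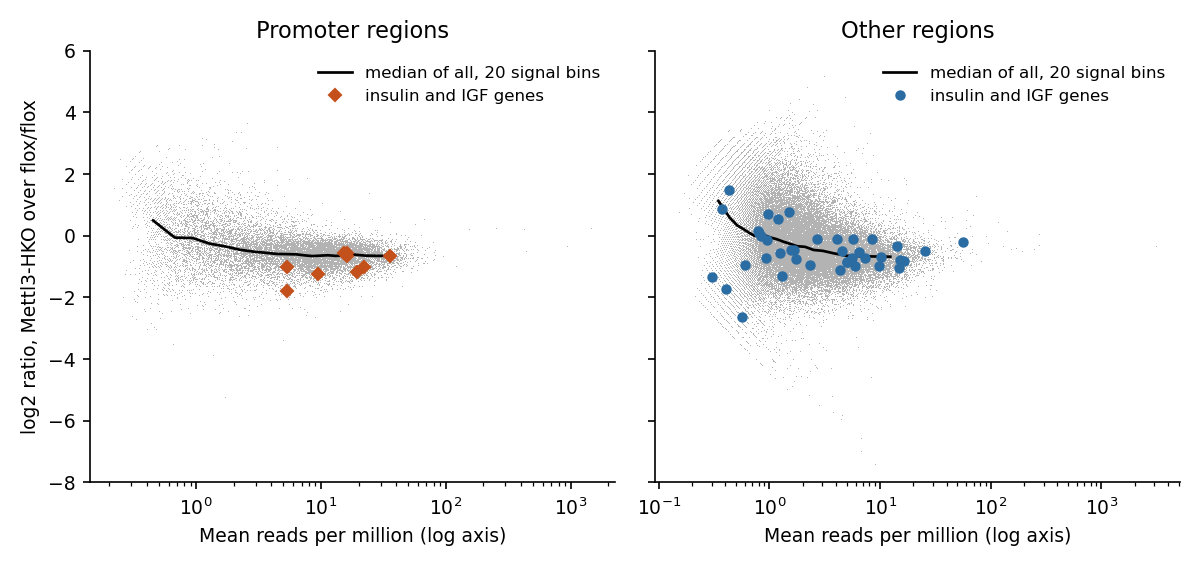
Log2 ratio of HKO over control against mean RPM (log axis) for all promoter regions (left) and all other regions (right) in grey, with the median over 20 bins of signal as a line and the insulin and IGF regions as diamonds and circles. The line falls from weak to strong regions, and the 5 member promoters that were at least 2-fold lower lie below it.

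The wider pathway was described with a list of 57 further genes, of which 42 had a promoter region, taking the strongest per gene. Their median log2 ratio was −0.49, beside −0.57 for all 13163 genes with one. Of the 42, 4 (9.52%) were at least 2-fold lower, against 15.9% of all genes, and 1 (2.38%) was at least 2-fold higher, against 3.84%. Both counts were thus below or near the background. The 4 were *Foxo4*, *Foxo6*, *Sgk2* and *Pik3r1*. *Foxo4* and *Foxo6*, the relatives of the FoxO members, had 481 and 678 reads in the control library and 172 and 286 in the HKO library, with log2 ratios of −1.61 and −1.38. Both were lower than *Foxo1*, by −1.05 (95% interval −1.35 to −0.76) and −0.81 (95% interval −1.06 to −0.56). *Foxo4* lies on chromosome X, where the median of the 432 promoter regions was −0.67. *Sgk2*, a kinase related to AKT, had 549 and 222 reads, a log2 ratio of −1.44, and *Pik3r1*, the main regulatory subunit of phosphatidylinositol 3-kinase, 1607 and 839 reads, a log2 ratio of −1.07. The single gene that was at least 2-fold higher was *Dok1*, an adaptor best known from blood cells, with 38 and 93 reads and a log2 ratio of 1.13 (95% interval 0.60 to 1.74).

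Relatives of the members within their families were set beside them. *Akt1* had 314 and 260 reads (log2 ratio −0.41), and *Akt2* was lower by −0.59 (95% interval −0.86 to −0.32). Among receptors, *Igf2r*, which clears IGF-2, had 316 and 230 reads (log2 ratio −0.59). *Igf1r*, the IGF-1 receptor that hepatocytes hardly express, had only 27 and 41 reads (log2 ratio 0.45, 95% interval −0.27 to 1.22). *Insr* was lower than *Igf2r* by −0.64 (95% interval −0.95 to −0.32). *Igfals*, which encodes the acid-labile subunit of the circulating IGF complex, had 706 and 717 reads, a log2 ratio of −0.11 (95% interval −0.27 to 0.04), and *Igfbp7*, 94 and 126 reads, a log2 ratio of 0.28 (95% interval −0.11 to 0.69). The table listed 0 regions for *Igf2* and *Igfbp3*. All 10 genes of the mTOR complexes and their regulators had a promoter region, with log2 ratios from −0.79 to −0.06, and so did 9 of 10 genes that restrain insulin signalling, from −0.75 to −0.03. These pairs of relatives were chosen after their values were seen.

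**Figure D4:**
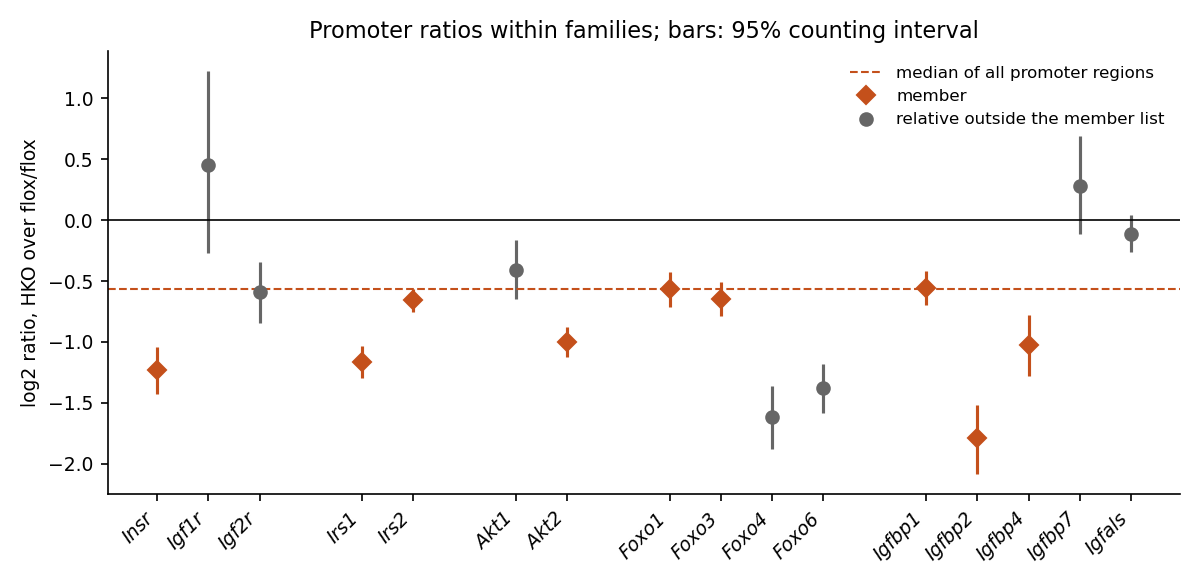
Log2 ratio of HKO over control at the strongest promoter region of receptors, IRS adaptors, AKT kinases, FoxO factors and IGF carriers, with diamonds for members, circles for relatives and bars for 95% counting intervals. The dashed line is the median of all promoter regions (−0.56), and *Igfbp2* (−1.79) and *Foxo4* (−1.61) are the lowest values shown while *Igf1r* (0.45) is the highest.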

How the data were processed

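Liver of 4 *Mettl3* flox/flox and of 4 *Mettl3*-HKO mice was pooled into 1 ATAC-seq library each. The authors trimmed adaptors with skewer, aligned reads with BWA to GRCm38, removed mitochondrial and improperly paired reads and called peaks with MACS2 with all duplicates kept. Whether the counts per region hold duplicates is not given, and any duplicates would make reads less independent than the intervals assume. How regions were merged and counted, and any Tn5 offset correction, is not given in the sources used here. The authors deposited raw counts per region, RPM values equal to the count plus 1 over a library total (recovered here from the values), and the fold enrichment, a ratio of read density in the region over mean read density in the genome. The log2 fold changes in the authors' table were not used.

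Of 74821 rows, 5272 repeats of a region were left out, and starts were converted to count from 1. Log2 ratios were computed from counts with 1 read added. Differences between regions used the exact conditional odds ratio and its 95% interval. At the median region 85 and 81 reads were counted. All 10 genes are named, and of the wider list those past 2-fold plus *Igf1r*, *Igf2r*, *Igf2*, *Igfals* and *Igfbp3*. *Akt1* and *Igfbp7* were added to these as family relatives after their values were seen. Some genes of that list are counted but not reported here. Members and lists were chosen with earlier results of these data known. The 34 regions that overlap a member gene but lie closest to another TSS were left out. Ratios and intervals were tested on simulated counts. RefSeq tables of GRCm38.p6 gave promoter sequences and gene positions. Scripts ran in Python 3.11.15 with pandas 2.3.3 and numpy 2.4.6. Intervals came from scipy 1.17.1 and plots from matplotlib 3.10.9.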

Additional observations from a re-analysis of the deposited data

How the results depend on the processing

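With 1 library per group no replicate could be left out. No paired analysis was possible because each group has 1 library. The median log2 ratio of the 9 promoter regions was −1.0, and it became −0.62 when the median of all regions was set to 0, −0.35 when that of the strongest 10% of promoters was, and −0.49 with scaling to the reads in regions. In the same order, the median of the 41 other regions (−0.56) became −0.18, 0.0892 and −0.0453, and that of the wider list (−0.49) became −0.11, 0.16 and 0.0222. Each of these 3 scalings left 1 promoter region (*Igfbp2*) and 2 other regions at least 2-fold lower, and put 4, 5 and 5 other regions at least 2-fold higher. With a promoter window of 2 kb, which adds regions of *Foxo3* and *Igf1*, the promoter median was −0.66. With 10 reads added, 3 promoter regions were at least 2-fold lower and 0 other regions higher. In the upper 50% of mean signal, and likewise with a peak in both libraries, 2 other regions were at least 2-fold lower and 0 higher. At 1.5-fold, 20 other regions were lower and 4 higher. Leaving out *Igf1* gave 0 other regions at least 2-fold higher, and leaving out *Foxo3* gave 3 lower, both alternatives added after seeing the data. Of the 50 single ratios, 8, 17 and 12 turned from below 0 to above 0 under the 3 scalings, each of which adds 1 constant to every ratio. Depth limits the weak regions most, since the region of *Igf1* with the highest ratio had 11 reads in the *Mettl3* flox/flox library.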
